A study of Mus musculus with 23 samples.

Results

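The genes followed here mark the layers of the cerebral cortex and were read in a mouse brain RNA-seq series, as 8 of the 18848 genes of the deposited table. They were taken by symbol: Cux1, Cux2, Rorb, Lamp5 and Rasgrf2 for the upper layers (5 genes) and Bcl11b, Fezf2 and Foxp2 for the deep layers (3 genes). All 8 were found, each under 1 Ensembl identifier, and all 8 passed the filter of a mean of at least 10 that 17256 genes passed. All libraries were made with a stranded mRNA kit from brains of males of the C57BL/6J strain, taken at postnatal day 17. Wild-type mice given vehicle (WT vehicle) gave 6 libraries and those given DCS (WT DCS) 5, and mice heterozygous for the Grin2b C456Y mutation gave 6 with vehicle (HT vehicle) and 6 with DCS (HT DCS). Grin2b is the gene of GluN2B, a subunit of NMDA-type glutamate receptors. The labels give DCS as an abbreviation only, the usual one for D-cycloserine, which acts on the glycine site of these receptors. They give no dose, route, duration or brain region. Nor do they state that every library is from a different mouse, and p-values therefore reflect the spread of libraries, which may be technical.

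The mammalian neocortex is built of layers of excitatory neurons that differ in birth date, connections and gene expression. Neurons of layers II to IV are born late and connect mostly within the cortex or receive thalamic input, and they express Cux1, Cux2 and, in layer IV, Rorb. Neurons of layers V and VI are born earlier and send axons to the brainstem, spinal cord, striatum and thalamus, and Fezf2 and Bcl11b are parts of the programme that specifies those that leave the forebrain. None of these genes is limited to the cortex: Bcl11b and Foxp2 are also strongly expressed in striatal projection neurons, Foxp2 in thalamus and Purkinje cells, Rorb in thalamus and Lamp5 in a class of GABAergic interneurons. In a bulk library, fewer cells of a type and less RNA per cell cannot be told apart.

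The values are normalised read counts, that is, read counts that the authors scaled between libraries. They summed to between 32300000 and 33500000 per library, and the unscaled depth, estimated from the spacing between low values, was about 25600000 to 37400000 reads. Lists of region markers showed that the libraries hold more than cortex. The summed count of 6 genes of cortical excitatory neurons was 121900 to 140900 over the 23 libraries, of 14 striatal genes 32760 to 42990, of 8 thalamic genes 12220 to 13730, and of 8 cerebellar genes 23210 to 34040. The 8 tested hindbrain Hox genes summed to 33.06 to 304 per library, and 2 of them were at 0 in at least 1 HT DCS library. Layer position can therefore not be checked in these libraries, and the members are named by their known roles. Between replicate numbers 1 to 3 and 4 to 6 of the titles, 8% of all genes differed within groups (limma, adjusted p under 0.05), a split of the libraries that no label explains.

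Stretches of 2 promoters are printed here, those of the members whose group means lay farthest apart, Lamp5 and Fezf2. Windows from 250 bases before a start site were found for 7 of the 8 members in RefSeq on GRCm38.p6 (Foxp2 was not among them). Of each window, the stretch upstream of the start that no GENCODE M21 exon covers is shown, 5′ to 3′ on the strand of the gene, with any match in capitals to the CRE (TGACGTCA), its core TGACG, the E-box CANNTG or the TATA box TATAAA, on either strand. The core lies inside the CRE, so the 2 can overlap.
Lamp5, chr2:136052089-136052238, plus strand, 150 bases: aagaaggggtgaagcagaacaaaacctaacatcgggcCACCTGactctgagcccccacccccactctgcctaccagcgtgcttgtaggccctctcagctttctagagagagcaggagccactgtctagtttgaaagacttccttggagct
Fezf2, chr14:12345960-12346115, minus strand, 156 bases: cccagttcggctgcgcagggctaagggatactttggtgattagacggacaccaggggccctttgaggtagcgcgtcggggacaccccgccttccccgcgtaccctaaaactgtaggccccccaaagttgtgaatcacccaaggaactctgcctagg
The Lamp5 stretch stops just before the first base of the GENCODE gene, 100 bases short of the RefSeq start. The Fezf2 stretch lies inside the annotated gene, 94 bases short of the RefSeq start. RefSeq has a further Lamp5 start inside the gene, whose window (chr2:136057498-136057747, 250 bases, 48.8% G and C, 1 E-box match) is not printed. The Lamp5 stretch holds 1 E-box and 2 CpG dinucleotides at 54.7% G and C, and the Fezf2 stretch no match to any of the 4 motifs, with 9 CpG at 60.3%. Over 32851 windows of the table, the same 150 bases hold an E-box in 49.3%, the CRE core in 8.37%, a whole CRE in 0.371% and the TATA box in 7.29%. Over the same 156 bases as for Fezf2, the shares are 50.6%, 8.76%, 0.399% and 7.52%. No binding was measured here, and the letters describe these windows only.

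The levels of the 8 genes ran from below to well above the median of all genes, 130.2 normalised reads per kilobase of exon. The highest group mean of a gene was 1.71% (Rasgrf2) to 13.5% (Lamp5) above its lowest. Per kilobase of annotated exon, Lamp5 had the highest mean, 1177 normalised reads, above 92.9% of the 17245 genes with a length. Rasgrf2 followed with 414.1, Cux2 with 324.8, Bcl11b with 319.5, Fezf2 with 221.4, Cux1 with 179.6, Rorb with 89.25 and Foxp2 with 47.4, the last above 31.4% of genes. The exon union of Foxp2 and Cux1 spans many transcripts, 20 and 14, which lowers a level per length. Within groups, the coefficient of variation ran from 5.41% for Rasgrf2 to 8.24% for Lamp5, with Fezf2 at 8.15%, against a median of 8.32% over all genes tested. Of the 24 neighbouring pairs of groups in the order of the means, 3 for each gene, 0 differed by more than the larger SD of the pair, and the ranges overlapped in 24. Neighbours in that order are the closest groups by construction. The highest and lowest group means did differ by more than the larger SD for Lamp5 (3704 and 3265, SD 246), Fezf2 (711.6 and 640.1, SD 60.5) and Cux2 (3410 and 3144, SD 218). For the other members they did not.

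**Figure D1:**
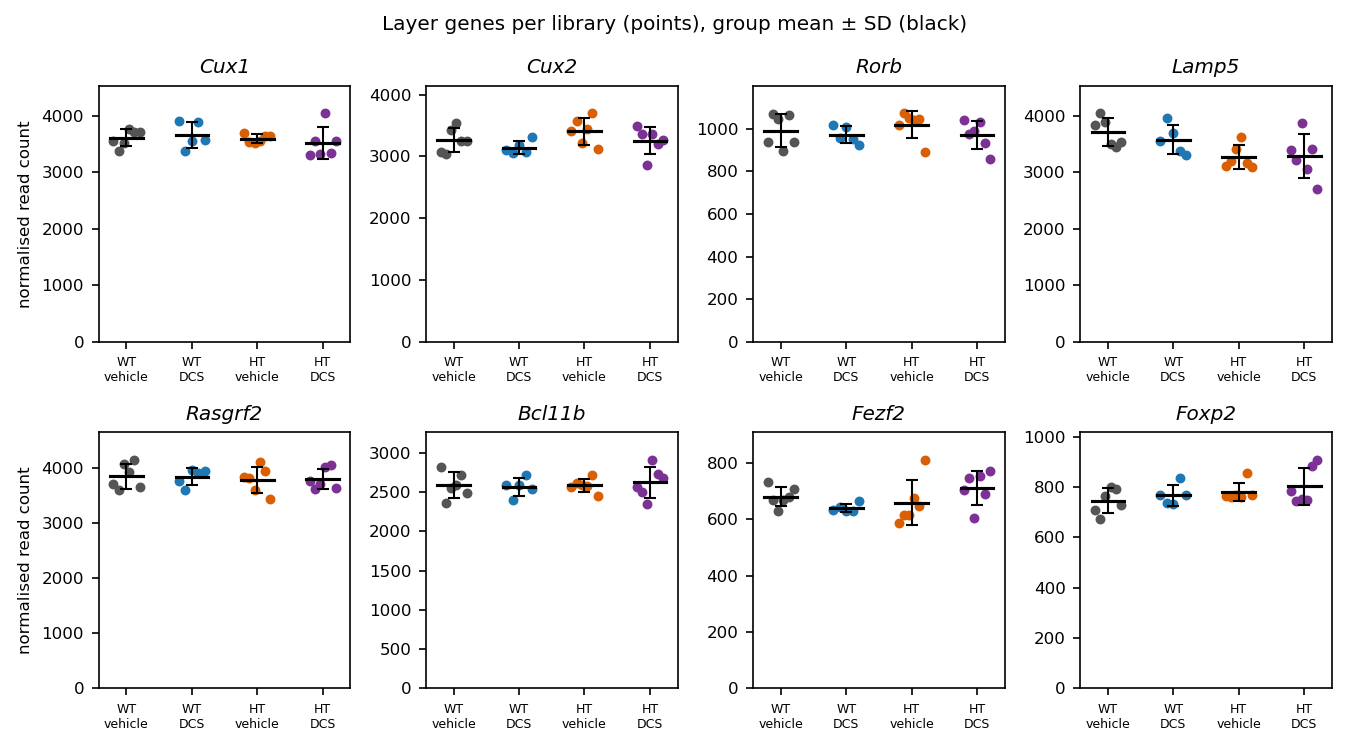
Normalised read count (y axis, from 0) of each of the 8 layer genes in the 4 groups (x axis). Points are libraries, black lines the group mean ± SD (n = 6, 5, 6 and 6); Lamp5 has its highest mean in WT vehicle (3704) and its lowest in HT vehicle (3265), and all groups of all genes overlap.

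No member passed the test in any comparison. The fit was limma over all 17256 genes, with adjustment over all of them, and it called 0 genes and 0% of genes in each of the 7 contrasts, as for 0 of 8 members. At an unadjusted p under 0.05, 1 of 8 members was counted between HT vehicle and WT vehicle (Lamp5), against 4.22% of all genes. The same count was 1 of 8 between HT DCS and WT DCS (Fezf2), against 7.55%, and 1 of 8 for the interaction of genotype and DCS (Fezf2), against 4.38%. It was 1 of 8 for genotype over both treatments (Lamp5), against 7.17%. It was 0 of 8 for DCS in wild-type mice, against 2.88%, 0 of 8 for DCS in heterozygotes, against 4.80%, and 0 of 8 for DCS over both genotypes, against 3.16%. With 8 genes, 1 gene counted is not set apart from these shares. The ranges of the compared groups overlapped for all 8 members in each of the 4 comparisons of 2 groups, where 0.249%, 0.411%, 0.330% and 0.127% of all genes had ranges that did not overlap, in the order HT vehicle against WT vehicle, HT DCS against WT DCS, WT DCS against WT vehicle and HT DCS against HT vehicle.

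**Figure D2:**
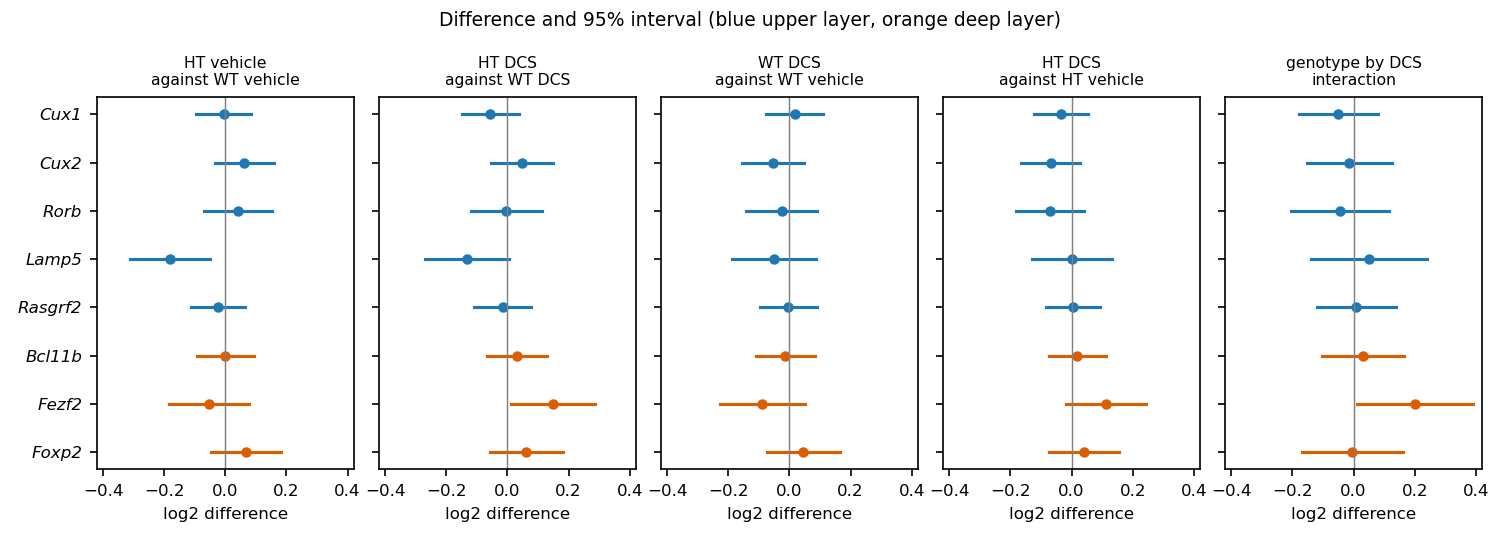
Log2 difference (x axis) with its 95% interval from limma for each of the 8 genes (y axis) in 5 contrasts, upper layer genes in blue and deep layer genes in orange. Most intervals span 0; those of Lamp5 in HT vehicle against WT vehicle (-0.31 to -0.05) and of Fezf2 in HT DCS against WT DCS (0.01 to 0.29) and in the interaction (0.01 to 0.39) do not, and none of the 3 passed the adjustment over all genes.

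Lamp5 was the member with the largest difference between genotypes under vehicle and over both treatments, while under DCS that of Fezf2 was larger. It encodes a lysosome-associated membrane protein of neurons, found in layer II and III neurons and in neurogliaform interneurons (ENSMUSG00000027270, GRCm38 chromosome 2, 136052239 to 136069917, plus strand, protein coding). Its counts in WT vehicle ran from 3442 through a median of 3678 to 4039, and in WT DCS they were 3559, 3949, 3687, 3378 and 3312. In HT vehicle they ran from 3086 through 3183 to 3620, and in HT DCS from 2710 through 3309 to 3872. The heterozygous libraries thus lay lower in most cases: 6 of 6 HT vehicle libraries were under the WT vehicle mean, 5 of them under every WT vehicle library, and 5 of 6 HT DCS libraries were under the WT DCS mean. The mean was 3704 ± 246 (SD, n = 6) in WT vehicle and 3265 ± 207 (n = 6) in HT vehicle, a log2 difference of -0.18 ± 0.06 (SE; limma, adjusted p = 0.999, unadjusted 0.00841). Under DCS the means were 3577 ± 255 (n = 5) and 3280 ± 389 (n = 6), a log2 difference of -0.13 ± 0.07 (limma, adjusted p = 0.677). Over both treatments the genotype difference was -0.16, and its 95% interval reached from -0.25 to -0.06 (limma, adjusted p = 0.484, unadjusted 0.00231, rank 81 of 17256 genes by p).

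No difference of Lamp5 with DCS was detectable. The difference of HT DCS from HT vehicle was 0.00062 on the log2 scale with an interval from -0.13 to 0.13, and that of WT DCS from WT vehicle was -0.05 with an interval from -0.19 to 0.09 (limma, adjusted p = 0.999 and 1). Within replicate numbers 1 to 3 the genotype difference under vehicle was -0.28 and within numbers 4 to 6 it was -0.09, and over both treatments it was -0.19 and -0.11 (limma, adjusted p = 0.183, 1, 0.391 and 0.882). Under DCS it was -0.08 without HT DCS replicate 6 and -0.18 without HT DCS replicate 3. Of 6 oligodendrocyte markers, 0 passed in any contrast (limma), but 6 of 6 had a lower mean in HT than in WT under either treatment, with medians of -0.11 and -0.24 against -0.00045 and -0.00032 over all genes. At an unadjusted p under 0.05 (limma), 0 of 6 were counted under vehicle, 5 of 6 under DCS and 6 of 6 over both treatments. The shares of all genes were 4.22%, 7.55% and 7.17%. The mean log2 level of these markers in HT DCS was 14.52, 14.39 and 14.62 in replicates 1 to 3. It was 14.19, 14.25 and 13.94 in replicates 4 to 6. In WT DCS it was 14.62, 14.67 and 14.63 in replicates 1 to 3, and 14.40 and 14.52 in replicates 4 and 5. The fit behind these counts has no term for the replicate numbers. The 6 markers share libraries and are not separate observations. Their summed counts ran from 226500 to 265500 in WT vehicle, 221100 to 271000 in WT DCS, 189800 to 254900 in HT vehicle and 161400 to 257600 in HT DCS, with 0 markers at 0 in any library. Among them Mag, a myelin-associated glycoprotein gene, had group means of 15030, 15700, 14930 and 13360, and Mog, a gene of the outer myelin surface, 5491, 5409, 5054 and 4646, in the order WT vehicle, WT DCS, HT vehicle, then HT DCS. Interneuron markers, which include Gad1 and Gad2 for GABA synthesis (10730 and 7957 in WT vehicle, 10930 and 7905 in HT vehicle), summed to 41250 to 43670, 41570 to 44940, 42400 to 43370 and 39920 to 43750 in the same order, again with 0 at 0. The libraries hold more than cortex, so these counts are not those of cortical interneurons alone. The part of oligodendrocytes or interneurons in the Lamp5 difference was not tested.

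The other upper layer genes differed less between groups. Cux1, a homeodomain transcription factor of layers II to IV (ENSMUSG00000029705, chromosome 5, 136248135 to 136567490, minus strand), had means of 3615, 3660, 3600 and 3524 in WT vehicle, WT DCS, HT vehicle, then HT DCS, and single libraries from 3313 to 4046. Its lowest and highest library were both HT DCS, replicates 1 and 4. The 95% interval of its genotype difference over both treatments ran from -0.10 to 0.03 on the log2 scale. The Cux1 locus also holds 2 measured transcripts of unclassified type on its own strand, A430110C17Rik and Gm38082, so the division of reads there is uncertain. Cux2, the paralog that regulates dendrite and spine growth of upper layer neurons (ENSMUSG00000042589, chromosome 5, 121856366 to 122050102, minus strand), had means of 3266, 3144, 3410 and 3255 in the same order. Of the 6 HT vehicle libraries, 2 lay over every WT vehicle library, and the difference over both treatments was 0.05, with an interval from -0.01 to 0.12 (limma, adjusted p = 0.779). Under DCS the Cux2 mean was lower in each genotype, by -0.05 in WT and -0.07 in HT (log2), and the interval over both genotypes reached from -0.13 to 0.01. The WT value was -0.0295 without WT vehicle replicate 4, and the HT value -0.0306 without HT DCS replicate 3.

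Rorb, a nuclear receptor that marks layer IV and shapes its barrels (ENSMUSG00000036192, chromosome 19, 18930605 to 19111196, minus strand), ranged from 859.4 in HT DCS replicate 6 to 1071 in HT vehicle replicate 2. Its group means were 990.5, 971.6, 1019 and 970.5 in WT vehicle, WT DCS, HT vehicle, then HT DCS. The genotype difference was 0.04 under vehicle and -0.0035 under DCS, with intervals from -0.07 to 0.15 and from -0.12 to 0.11. Under vehicle it was 0.0131 without WT vehicle replicate 4 and 0.0789 without HT vehicle replicate 6. Rasgrf2, a calcium-responsive exchange factor for Ras and Rac used as a layer II and III marker (ENSMUSG00000021708, chromosome 13, 91880400 to 92131656, minus strand), varied least between groups, with means of 3859, 3844, 3794 and 3804. Over both treatments its genotype difference had an interval from -0.08 to 0.04, and over both genotypes its DCS difference one from -0.06 to 0.06. These intervals bound the size of a change at this depth and do not show that there was none.

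Among the deep layer genes, Fezf2 varied most between groups. It encodes a zinc finger protein that specifies layer V neurons with axons to the brainstem and spinal cord (ENSMUSG00000021743, chromosome 14, 12342094 to 12348189, minus strand). Its counts in WT vehicle ran from 630.7 through a median of 674.4 to 731.1, and in WT DCS they were 632.3, 643.7, 631.1, 629 and 664.2. In HT vehicle they ran from 587.2 through 633 to 811.3, and in HT DCS from 605.6 through 725.1 to 770.8. The WT DCS libraries were the tightest group, the HT vehicle libraries the widest, and 5 of 6 HT DCS libraries lay over every WT DCS library. The means were 640.1 ± 14.7 (SD, n = 5) in WT DCS and 711.6 ± 60.5 (n = 6) in HT DCS, a log2 difference of 0.15 ± 0.07 (SE; limma, adjusted p = 0.647, unadjusted 0.036). Under vehicle the difference had the other sign, -0.05 ± 0.06, with means of 681.1 ± 34.4 in WT and 659.4 ± 80.4 in HT (n = 6 each). It was -0.115 without HT vehicle replicate 6 and -0.0215 without HT vehicle replicate 1 (limma, adjusted p = 0.807 and 0.999). DCS likewise went with a lower mean in WT (-0.09 ± 0.07) and a higher one in HT (0.11 ± 0.06).

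The difference between those effects, the interaction, was 0.20 ± 0.09 for Fezf2 (limma, adjusted p = 0.984, unadjusted 0.0389). HT vehicle replicate 6, at 811.3, was the highest of all 23 libraries and stood apart from the other HT vehicle libraries, which reached 675.8. Among the HT vehicle libraries, this one also had the lowest mean log2 level of the oligodendrocyte markers (14.20) and of the hindbrain Hox genes (3.20). Without it the interaction was 0.26 and the DCS difference in HT was 0.18, against 0.11 with it. Within replicate numbers 1 to 3 the interaction was 0.26 and within numbers 4 to 6 it was 0.14 (limma, adjusted p = 0.65 and 1). Over all the alternatives tried, the adjusted p of the interaction ran from 0.65 to 1 (limma). The means of the 6 oligodendrocyte markers lay on the other side, with 0 passing (limma): 6 of 6 were lower in HT DCS than in WT DCS (median -0.24) and than in HT vehicle (median -0.15), and 6 of 6 had a negative interaction (median -0.14). Their part in the Fezf2 values was not tested.

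Bcl11b and Foxp2 are expressed in striatum as well as in deep cortex. The highest group mean was 2.3% above the lowest for Bcl11b and 7.9% for Foxp2. Bcl11b, also known as Ctip2, a zinc finger repressor of layer V neurons (ENSMUSG00000048251, chromosome 12, 107910403 to 108003602, minus strand), had means of 2590, 2564, 2586 and 2623 in WT vehicle, WT DCS, HT vehicle, then HT DCS. Its genotype difference over both treatments was 0.01 with an interval from -0.05 to 0.08. Foxp2, a forkhead factor of layer VI (ENSMUSG00000029563, chromosome 6, 14901349 to 15441977, plus strand), had means of 745.3, 768.6, 780.1 and 804.3. All 6 HT vehicle libraries lay over the WT vehicle mean, 1 of them over every WT vehicle library, and the difference over both treatments was 0.06 with an interval from -0.02 to 0.15 (limma, adjusted p = 0.779). Striatal markers went the other way: 14 of 14 had a lower mean in HT over both treatments, with a median of -0.09 and 0 past the adjusted threshold. At an unadjusted p under 0.05 (limma), 9 of 14 were counted, against 7.17% of all genes. The 14 markers share libraries and are not separate observations. They summed to 36630 to 42990 in WT vehicle, 35610 to 40850 in WT DCS, 34420 to 37700 in HT vehicle and 32760 to 37120 in HT DCS, with 0 at 0, and their part in the levels of Bcl11b and Foxp2 was not tested. Drd1, the dopamine receptor of the direct pathway, had means of 690.4, 719.4, 712.9 and 655.2 in the same order, and Drd2, that of the indirect pathway, 695.8, 691.8, 645.3 and 597.9.

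Set side by side, upper and deep members had a balance whose mean was lowest in HT DCS. The mean log2 level of the 5 upper genes minus that of the 3 deep genes was 1.35 ± 0.07 (SD, n = 6) for WT vehicle and 1.34 ± 0.05 (n = 5) for WT DCS. It was 1.32 ± 0.09 (n = 6) for HT vehicle and 1.23 ± 0.12 (n = 6) for HT DCS. This difference depends on gene length, which is the same in every group. The HT DCS libraries reached from 1.02 to 1.38 and overlapped the other groups. The balance was not tested, since the genes were chosen with results of these data known. From WT vehicle to HT DCS, Lamp5 had the largest fall in mean among the upper members (3704 to 3280). Longer lists of other genes of the same layers did not show such a drop. For 14 upper layer and layer IV genes, the mean log2 level was 9.878 in WT vehicle and 9.912 in HT DCS. For 12 genes of layers V and VI, it was 10.57 and 10.59.

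No other listed gene of the same layers passed the test either. Of 14 companions of the upper layers and layer IV, 0 passed in any contrast, and 6 had a higher mean in HT vehicle than in WT vehicle, with a median of -0.02 (limma). Under DCS 12 of 14 had a higher mean in HT, with a median of 0.04. At an unadjusted p under 0.05 (limma), 0 of 14 were counted for genotype under vehicle, 1 under DCS and 3 over both treatments. The shares of all genes were 4.22%, 7.55% and 7.17%, and the genes of a list share libraries. Pou3f2 and Pou3f3, POU factors of upper layer neurons, had means of 804 and 2528 in WT vehicle and 811.6 and 2614 in HT vehicle. Of 12 companions of layers V and VI, 0 passed, and 8 had a higher mean in HT vehicle and 7 in HT DCS. At an unadjusted p under 0.05 (limma), 0, 2 and 0 of 12 were counted in the same 3 genotype contrasts. Etv1, a layer V factor, had 5207 in WT vehicle and 5248 in HT vehicle, and Tle4, a corepressor of layer VI neurons, 1667 and 1736. Of 6 subplate and layer VIb genes, 0 passed, among them the complexin gene Cplx3 (464.7 and 467.3). Ccn2, a secreted matrix protein gene of layer VIb, had 793.2 in WT vehicle and 966.9 in HT vehicle, with ranges that did not overlap (724.3 to 857.1 and 900.8 to 1100) and a log2 difference of 0.29 ± 0.06 (SE; limma, adjusted p = 0.536, unadjusted 3.8e-05). Under DCS its means were 862.7 in WT and 883.9 in HT, a difference of 0.04. The 6 genes of cortical excitatory neurons of all layers include the vesicular glutamate transporter gene Slc17a7, at 40740 and 42160, and Neurod2, at 2689 and 2724. All 6 had a higher mean in HT over both treatments, with a median of 0.02, and 0 passed.

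Markers of the remaining regions also passed in 0 cases (limma). Thalamic markers, among them Tcf7l2 (1358 in WT vehicle and 1389 in HT vehicle) and Prkcd (2299 and 2273), had a higher mean in HT vehicle in 4 of 8. Hippocampal markers had one in 3 of 6, among them Prox1, a dentate granule cell factor (1406 and 1347), and Fibcd1 (938.5 and 932.2). Cerebellar markers had one in 3 of 8, among them the Purkinje cell genes Pcp2 (1571 and 1632) and Car8 (5540 and 5551). Under DCS 1 of 8 cerebellar markers had a higher mean in HT, with a median of -0.11. Of these 8, 3 had an unadjusted p under 0.05 (limma), against 7.55% of all genes. HT DCS replicate 5 stood apart there, with 3812 for Car8, where the other HT DCS libraries had 5184 to 5997. All 8 tested Hox genes, which are low, had a lower mean in HT under either treatment, with a median of -0.67 under each. HT DCS replicates 5 and 6 stood apart, with a mean log2 level of 2.13 and 2.28. The other HT DCS libraries had 4.18 to 4.93, within the range of WT DCS, 4.03 to 5.07. Under vehicle the libraries had 3.20 to 4.78 in HT and 4.01 to 5.08 in WT. Hoxa2 was under the filter, with means from 5.697 in HT DCS to 10.45 in WT vehicle. Hoxa3 had means of 18.58, 13.87, 12.26 and 10.75 in WT vehicle, WT DCS, HT vehicle, then HT DCS.

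Between libraries of a group, the members varied in partly opposite directions. Deviations from the group means on the log2 scale were compared over the 23 libraries for the 28 pairs of members and for each member with the mean of each of 11 marker lists, 116 relations in all, with adjustment over them. Among the 28 pairs, Pearson r ran from -0.63 (Cux1 with Lamp5) to 0.58 (Cux1 with Bcl11b), and 17 were above 0. For Cux1 with Lamp5, Spearman rho was -0.70 (permutation p = 0.0098 for r and 0.0012 for rho, adjusted 0.18 and 0.072), and r was -0.72 without the 2 farthest libraries. With the difference between replicate numbers 1 to 3 and 4 to 6 removed, r was -0.51, and within these sets it was -0.73 and -0.34. Lamp5 had a negative r with 6 of the 7 other members, the exception being Rorb at 0.44. That with Rasgrf2 was only -0.04, and 0.20 with the number sets removed. The upper layer gene Rasgrf2 had the same r with the upper layer gene Cux2 and the deep layer gene Bcl11b (0.54 each). Within the deep class, Fezf2 had 0.19 with Bcl11b and 0.02 with Foxp2.

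**Figure D3:**
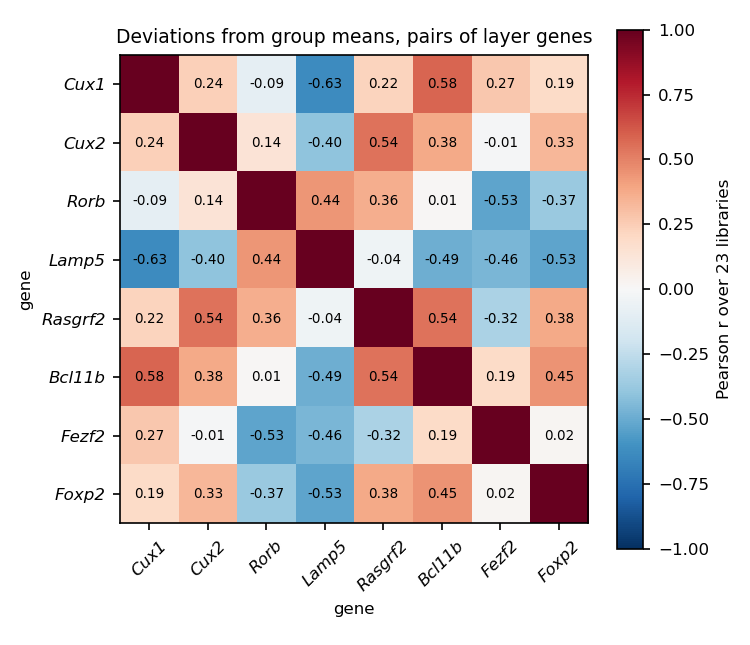
Pearson r over 23 libraries between the deviations of each pair of the 8 layer genes from their group means (both axes list the genes; colour and number give r). The row of Lamp5 is negative apart from Rorb (0.44), and the block of Cux1, Cux2, Rasgrf2 and Bcl11b is positive, from 0.22 to 0.58.

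The highest values of r between a member and a list were those of Bcl11b with the deep layer companions and of Lamp5 with the oligodendrocyte markers, and the second did not pass adjustment. For Bcl11b and the mean of the 12 genes of layers V and VI, r was 0.75 and rho 0.69 (permutation p = 0.0003 and 0.00091, adjusted 0.035 and 0.072), and r was 0.57 without the 2 libraries farthest from the median of Bcl11b. Within replicate numbers 1 to 3 and 4 to 6 it was 0.62 and 0.86. This was the only one of the 116 relations with an adjusted p of r under 0.05. Relations across layer classes were also positive: Bcl11b had r = 0.52 with the upper layer companions, and the upper layer genes Cux1 and Cux2 had 0.61 and 0.57 with the layer V and VI list (permutation p = 0.016, 0.028 and 0.0093, adjusted 0.21, 0.22 and 0.18). Bcl11b with the striatal list had r = 0.29 and rho = 0.25 (permutation p = 0.22 for r, adjusted 0.51). That r was 0.43 without the 2 libraries farthest from the median of Bcl11b. It was 0.71 within replicate numbers 1 to 3 and 0.08 within numbers 4 to 6, so it depended on the number set. For Lamp5 and the 6 oligodendrocyte markers, r was 0.75 and rho 0.65 (permutation p = 0.00093 and 0.0028, adjusted 0.054 and 0.11), with 0.53 without the 2 farthest libraries and 0.60 and 0.63 within the number sets. Rorb with that list had r = 0.64 and Fezf2 had r = -0.67, with rho of 0.40 and -0.43 (permutation p of r = 0.0023 and 0.0025, adjusted 0.073 for each). For Rorb r was 0.38 without the 2 farthest libraries, -0.05 within numbers 1 to 3 and 0.70 within numbers 4 to 6. For Fezf2 it was -0.46 without the 2 farthest libraries, and -0.48 and -0.62 within the number sets.

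**Figure D4:**
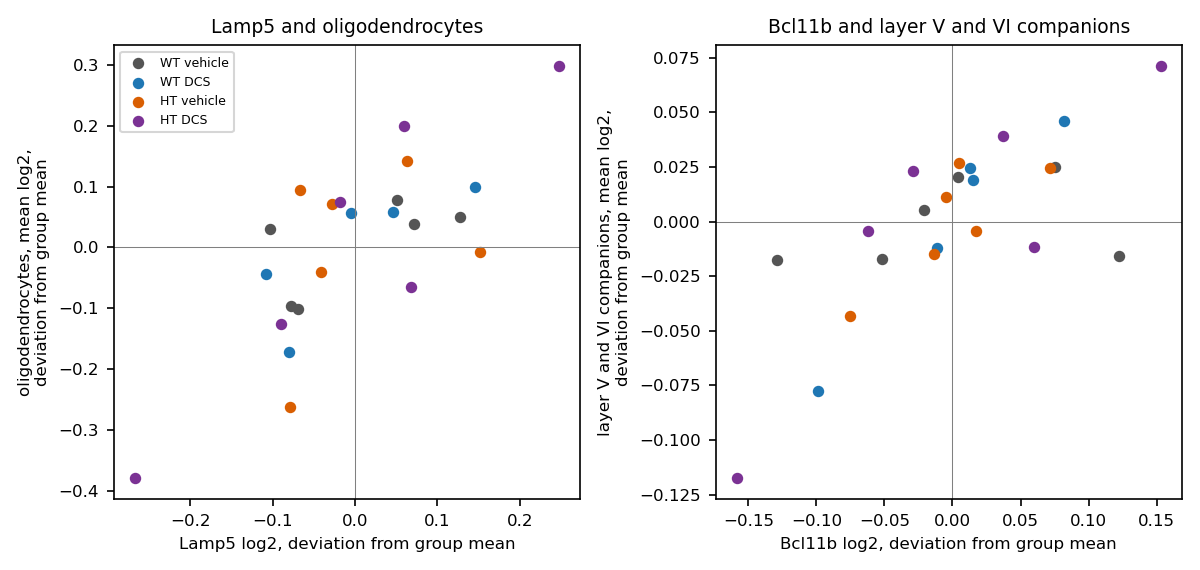
Left, deviation of Lamp5 from its group mean (x axis, log2) against that of the mean of 6 oligodendrocyte markers (y axis, log2); right, Bcl11b against the mean of 12 layer V and VI genes. Each point is 1 of 23 libraries, coloured by group; r is 0.75 in each panel, and HT DCS libraries lie at both ends of each.

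The genes whose deviations were most like a member's came from 12200 genes with a mean of at least 100, as Pearson r over the same 23 libraries, given as a description. For Lamp5 they were Snap25, the synaptic SNARE protein gene (0.897), Kcnab3, a potassium channel subunit gene (0.891), and Chn1, which encodes chimaerin 1 (0.882). For Rasgrf2 they were Kalrn, another exchange factor gene of dendritic spines (0.818), the synaptic vesicle gene Sv2b (0.813) and Creg2 (0.803). For Bcl11b they were Mapk8, the JNK1 gene (0.833), Prrc2b (0.833) and Tshz2 (0.829), which is also in the list of layer V and VI genes. Cux1 was most like Mvb12b (0.856), Sprn (0.853) and Carmil1 (0.852), and Cux2 like Arl14ep (0.759), Prepl (0.758) and Slc7a14 (0.751). Rorb was most like Nol3 (0.834), Exph5 (0.831) and Litaf (0.802), Fezf2 like Snx4 (0.85), Cdk5rap3 (0.846) and Eif3l (0.805), and Foxp2 like Irs1 (0.798), Lrrc58 (0.792) and Traf3 (0.79). The points share libraries and scaling, and the top of so many genes is high by selection.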

How the data were processed

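The authors deposited 1 table of 18848 genes by 23 libraries of a signal, decimal read counts scaled between libraries. Per the submitters' processing notes, Salmon 1.1.0, R 3.6.2, DESeq2 1.26.0 and GRCm38 were used, each named without its role. No source used here gives the annotation release, filters or strand setting. Low values clustered near multiples of 1 step per library (56.6% to 79% lay within 0.15 of one), too few for recovering whole reads. Differences in total RNA cannot be seen after scaling.

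From the table, limma 3.58.1 in R 4.3.3 was fitted to log2(value + 1) for 17256 genes, those whose mean reached 10, with 1 coefficient per group over all 23 libraries, a mean trend and robust settings. Tests are two-sided, with Benjamini-Hochberg adjustment over all genes at 0.05. On this scale the change of low genes is understated. Levels per length use the exon union of GENCODE M21 on GRCm38. Relations used 100000 permutations within groups. Symbols came from a table of identifiers (16 had none). The fit was tested on simulated data. The 4 figures were drawn with matplotlib 3.10.9.

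The members and lists were chosen with earlier results of these data known. Named genes are the members, the first 2 genes of each list and the 3 genes most like each member, without predicted models. Libraries are numbered as in the titles. Alternatives were other pseudocounts, filters, limma settings, quantile normalisation, only the groups compared, the replicate block, number sets and leaving out each library.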

Additional observations from a re-analysis of the deposited data

Results flagged for a closer look

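Among 32 sets of 1 member in 1 group, 3 held a library far from the others by Dixon's criterion, which chance alone meets in about 1 set in 20. Cux1 in HT DCS replicate 4 had 4046 normalised reads, where the group's median was 3448. Rorb in HT vehicle replicate 6 had 892.3, where the median was 1042. Foxp2 in HT vehicle replicate 5 had 854.8, where the median was 766.1 and the lowest library 762.3.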

How the results depend on the processing

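No member passed the adjusted test under any alternative (0 of 1824 values for 56 differences). Of these values, 1731 kept their direction and 93 in 21 differences did not, all in differences of at most 0.0304 on the log2 scale. The number of genes called for genotype over both treatments was 0 as reported, 2 after quantile normalisation, 6 and 6 with the replicate block (numbers from titles or descriptions) and 4 with the number sets 1 to 3 and 4 to 6 as a term. Which of those genes differ was not followed up. Leaving out 1 library gave 0 to 1 genes for HT DCS against WT DCS (1 without HT vehicle replicate 6), 0 to 1 for HT DCS against HT vehicle (without HT vehicle replicate 1 or HT DCS replicate 4) and 0 to 1 for genotype over both treatments (without HT vehicle replicate 6 or HT DCS replicate 2). Same-numbered libraries of different groups had a mean correlation of deviations of 0.03 (-0.07 to 0.30) by titles and 0.02 (-0.11 to 0.30) by descriptions. For libraries of other numbers the means were -0.01 and -0.00. By titles and descriptions, 7 and 8 of 23 libraries correlated best with their own number. No chance level was computed for these values, so they do not decide whether the numbers pair the libraries.

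Signs turned as follows. With the replicate block by titles, Rorb in HT DCS against WT DCS was 0.0256, Rasgrf2 there 0.00246, and under DCS over both genotypes Bcl11b was -0.000504 and Rasgrf2 -0.00899. With the block by descriptions, in WT DCS against WT vehicle Bcl11b was 0.000732 and Rasgrf2 0.0127, and the Rasgrf2 interaction was -0.00803. With quantile normalisation, Rorb in HT DCS against WT DCS was 0.00556 and Rasgrf2 under DCS over both genotypes -0.00102. With the number term, Rorb in HT DCS against WT DCS was 0.00472 and Rasgrf2 in WT DCS against WT vehicle 0.000422. The cause was not tested.

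Leaving out 1 library at a time, HT vehicle against WT vehicle ran from -0.0238 to 0.00742 for Cux1, -0.0264 to 0.0238 for Bcl11b and -0.0484 to 0.00267 for Rasgrf2. HT DCS against WT DCS ran from -0.0235 to 0.031 for Rorb and -0.000257 to 0.0621 for Bcl11b. WT DCS against WT vehicle ran from -0.00753 to 0.0453 for Cux1, -0.0388 to 0.0116 for Bcl11b and -0.0233 to 0.0178 for Rasgrf2. HT DCS against HT vehicle ran from -0.0126 to 0.0497 for Bcl11b, -0.0228 to 0.0282 for Rasgrf2 and -0.0489 to 0.054 for Lamp5. The interaction ran from -0.0399 to 0.0229 for Cux2, -0.0409 to 0.0258 for Foxp2 and -0.0182 to 0.0328 for Rasgrf2. Genotype over both treatments ran from -0.000467 to 0.0307 for Bcl11b. DCS over both genotypes ran from -0.0289 to 0.0057 for Cux1, -0.0128 to 0.0184 for Bcl11b, -0.0034 to 0.0432 for Fezf2, -0.0137 to 0.0118 for Rasgrf2 and -0.0498 to 0.00165 for Lamp5.

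The Lamp5 genotype difference over both treatments stayed negative under all alternatives, -0.186 to -0.111, with adjusted p from 0.178 to 0.882 (limma). Splits by number set were chosen after seeing the data. Depth per library is an estimate, so counting error was not separated from other spread.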

Other observations

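Between replicate numbers 4 to 6 and 1 to 3 of the titles, compared within groups over 11 and 12 libraries, 1380 genes differed (limma, adjusted p under 0.05), 614 higher and 766 lower in numbers 4 to 6, and 0 of the 8 layer genes did. The largest differences among the 8 were -0.12 for Lamp5 (limma, adjusted p = 0.0558) and 0.11 for Foxp2 (adjusted p = 0.0591), on the log2 scale. Their unadjusted p was 0.00476 and 0.00521 (limma). For Fezf2 (0.10), Rorb (-0.08) and Cux1 (0.06) the unadjusted p was 0.03, 0.0313 and 0.0336 (limma), also under 0.05. The share of all genes under 0.05 before adjustment was not counted for this split. The split was chosen after seeing the data, and no label says what the numbers stand for.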
